A study of Rattus norvegicus with 9 samples.

Results

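The 10 genes described here encode the T cell receptor signalling chains CD3 delta, epsilon, gamma and zeta (Cd3d, Cd3e, Cd3g and Cd247), the kinase Lck, the adhesion receptor Cd2, the coreceptors Cd4 and Cd8a, and the cytotoxic effectors granzyme B (Gzmb) and perforin (Prf1). They were chosen by symbol, and every probe set that the array annotation assigns to 1 of these symbols alone was taken. All 10 genes were measured, by 15 probe sets, among 14217 genes that have a probe set of their own. Cd3e, Cd247, Cd8a and Gzmb have more than 1 probe set, and the probe set with the highest mean over the 9 arrays stands for the gene. Antigen recognition by the T cell receptor is passed into the cell by the CD3 and zeta chains, whose cytoplasmic tails are phosphorylated by Lck, the kinase carried to the receptor by CD4 or CD8. Cytotoxic T cells and natural killer (NK) cells kill by releasing perforin, which opens the membrane of the target, together with granzymes, which start apoptosis inside it. In the rat, CD4 is also carried by macrophages and CD8 alpha by many NK cells.

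RNA was measured in pieces of bladder from female Sprague-Dawley (SD) rats, in 3 groups of 3 samples. All labels give an age of 10 weeks, which the protocol places at the start of the treatment. The tumors are bladder transitional cell carcinomas (BTCC) raised by instilling 20 mg/ml MNU, an alkylating carcinogen, into the bladder weekly for 10 weeks. The adjacent tissues were taken beside the tumors of the same rats, so they had received MNU as well. Normal bladders came from 3 other rats, which the series design calls normal, although their sample labels repeat the text on MNU. No sorting of cells is described for any sample, and the distance of the adjacent tissue from the tumor is not given in the sources used here. These are therefore whole-tissue levels, in which fewer cells of a type and less RNA per cell cannot be told apart.

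Arrays were comparable in overall level, with a median log2 signal between 6.87 and 7.23. Between 30.4% and 36.1% of probe sets lay under a signal of 50 (5.64 on the log2 scale), where values scatter widely, with a median SD within groups of 1.02 at log2 signals of 4 to 5 against 0.251 at 9 to 10. Values under 50 are called dim below. If the lower group of a comparison had only dim arrays, only a minimum fold is given, from the brighter group's mean divided by 50, and none where that minimum falls under 1. Markers of urothelium, the bladder's epithelium, were bright in every group, with summed linear signals of 88772 to 100979 in tumors, 66037 to 105466 in adjacent tissue and 79004 to 87471 in normal bladder over 9 measured genes. Muscle gene signal set some samples apart. Summed signals of 10 smooth muscle genes were 96797, 3364 and 3983 in the tumors of rats 1 to 3, 48464, 14664 and 6214 in their adjacent tissue, and 135763 to 140814 in normal bladder. Results of the 10 genes, and of named T cell and cytotoxic genes, that rest on single arrays are therefore given with and without them.

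Promoter sequences are shown for the CD3 genes and Lck. Cd3d, Lck and the dimmer of the 2 probe sets of Cd3e carry the calls reported below. Cd3g, which lies next to Cd3d on chromosome 8, carries none. In the RefSeq annotation of build GRCr8, no other gene lies between Cd3g and Cd3d or between Cd3d and Cd3e. Each sequence runs from 250 bases before to 50 bases after an annotated start, and Lck has 2 such starts. The capitals mark matches, on either strand, to AGGAAG (a core of ETS factor sites), TGTGGT (a core of RUNX sites), GATAA (a core of GATA sites) and CAGCTG (an E-box). No marked matches overlap.
Cd3d (chr8:54185269-54185568, plus strand): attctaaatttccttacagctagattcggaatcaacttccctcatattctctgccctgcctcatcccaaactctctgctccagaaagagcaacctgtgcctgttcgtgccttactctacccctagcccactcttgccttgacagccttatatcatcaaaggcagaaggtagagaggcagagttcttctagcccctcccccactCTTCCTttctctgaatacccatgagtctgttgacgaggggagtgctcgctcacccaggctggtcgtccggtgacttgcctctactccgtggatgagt
Cd3e (chr8:54211721-54212020, minus strand): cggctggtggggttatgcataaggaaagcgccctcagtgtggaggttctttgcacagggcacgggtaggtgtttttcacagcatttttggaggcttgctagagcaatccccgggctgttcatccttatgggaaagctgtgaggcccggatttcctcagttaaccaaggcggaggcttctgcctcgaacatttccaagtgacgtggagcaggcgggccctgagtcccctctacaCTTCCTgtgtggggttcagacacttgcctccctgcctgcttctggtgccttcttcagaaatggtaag
Cd3g (chr8:54183869-54184168, minus strand): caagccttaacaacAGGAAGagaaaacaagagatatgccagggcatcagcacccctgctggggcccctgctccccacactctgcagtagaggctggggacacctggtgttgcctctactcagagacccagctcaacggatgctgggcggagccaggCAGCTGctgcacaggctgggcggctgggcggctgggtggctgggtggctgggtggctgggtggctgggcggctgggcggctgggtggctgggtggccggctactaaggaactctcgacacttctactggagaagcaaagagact
Lck, first start (chr5:147201218-147201517, minus strand): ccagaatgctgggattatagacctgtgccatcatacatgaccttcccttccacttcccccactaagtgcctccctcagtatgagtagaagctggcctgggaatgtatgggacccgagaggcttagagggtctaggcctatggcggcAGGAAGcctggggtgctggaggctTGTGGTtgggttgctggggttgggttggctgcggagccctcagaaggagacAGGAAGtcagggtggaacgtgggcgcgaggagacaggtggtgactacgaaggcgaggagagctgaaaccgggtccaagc
Lck, second start (chr5:147183601-147183900, minus strand): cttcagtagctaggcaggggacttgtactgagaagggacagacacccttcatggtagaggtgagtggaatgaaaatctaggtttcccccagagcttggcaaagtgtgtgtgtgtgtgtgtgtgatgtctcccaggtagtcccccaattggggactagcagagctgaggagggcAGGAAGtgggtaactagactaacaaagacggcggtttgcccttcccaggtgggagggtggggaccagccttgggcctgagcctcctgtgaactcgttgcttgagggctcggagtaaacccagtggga
AGGAAG occurred in each of these 5 windows. RefSeq promoters were found for 9 of the 10 genes, 10 windows in all, and 8 of these windows held AGGAAG, which 34.5% of all 33469 rat promoter windows of this length hold. TGTGGT was found in 4 of the 10 windows (17.3% of all), CAGCTG in 3 (15.1% of all) and GATAA in 1 (26.5% of all). These are matches of letters, not measured binding sites.

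Cd3d, the delta chain of the CD3 complex, had log2 signals of 6.69, 4.98 and 6.31 in the tumors of rats 1 to 3, 7.66, 7.21 and 7.30 in their adjacent tissue, and 1.84, 2.15 and 2.64 in the normal bladders of the other 3 rats. Each adjacent sample lay above each tumor. All 3 normal bladders and tumor 2 were dim, so their order among themselves carries no measurement. Cd3d rose in adjacent tissue at least 3.35-fold over normal bladder (log2 signal 7.39 ± 0.24 against 2.21 ± 0.40, SD, n = 3 each, limma adjusted p = 0.00078). In tumors it rose at least 1.27-fold (5.99 ± 0.90 against 2.21 ± 0.40, limma adjusted p = 0.010). Both calls held without each array in turn (limma adjusted p up to 0.0075 for adjacent tissue and 0.047 for tumors).

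Cd3e, the epsilon chain, gave different pictures on its 2 probe sets. On the brighter one, 1389997_at, log2 signals were 4.29, 4.34 and 4.87 in tumors, 5.46, 6.30 and 6.16 in adjacent tissue and 5.09, 4.61 and 2.89 in normal bladder, so that all tumors and normal bladders were dim. Its difference between adjacent tissue and normal bladder was 1.77 on the log2 scale (SE 0.64, limma adjusted p = 0.098). On the other, 1379791_at, log2 signals were 6.08, 3.67 and 5.84 in tumors, 6.83, 6.81 and 6.23 in adjacent tissue and 1.84, 2.64 and 1.99 in normal bladder, the same order of groups as for Cd3d. That probe set rose at least 1.97-fold in adjacent tissue over normal bladder (limma adjusted p = 0.0017), a call kept without each array in turn. In tumors it passed the test too (5.20 ± 1.32 against 2.16 ± 0.43, limma adjusted p = 0.038), but it kept that call only when tumor 2 was left out, and the limma adjusted p reached 0.12 without tumor 3 or without normal sample 1. The tumor mean is dim, so no fold is given. With both probe sets averaged, the test was passed in adjacent tissue (limma adjusted p = 0.0047) and not in tumors (limma adjusted p = 0.091), both against normal values that are dim on every array.

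Cd3g, the gamma chain, was bright in every sample. It had log2 signals of 8.07, 7.07 and 7.55 in tumors, 8.72, 8.66 and 8.09 in adjacent tissue and 8.25, 8.40 and 8.15 in normal bladder. Unlike those of Cd3d, the normal samples lay among the adjacent ones and above every tumor. Neither comparison with normal bladder passed, with a log2 difference of 0.22 in adjacent tissue (95% confidence interval -0.29 to 0.72, limma adjusted p = 0.55) and of -0.70 in tumors (-1.34 to -0.07, limma adjusted p = 0.12). Without tumor 1, the value in tumors was -0.96 and passed (limma adjusted p = 0.013).

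Cd247, the zeta chain, had log2 signals of 6.39, 5.67 and 5.58 in tumors, 6.82, 6.53 and 6.82 in adjacent tissue and 5.21, 5.70 and 6.13 in normal bladder on its brighter probe set, 1370621_at. Each adjacent sample lay above each sample of the other groups, but the difference from normal bladder did not pass (1.04, 95% confidence interval 0.23 to 1.85, limma adjusted p = 0.077). It passed after quantile normalization and with arrays centred on their medians (limma adjusted p = 0.041 in both). On the other probe set, 1388026_at, the log2 difference was 0.08 in adjacent tissue and 0.55 in tumors (limma adjusted p = 0.94 and 0.26).

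**Figure D1:**
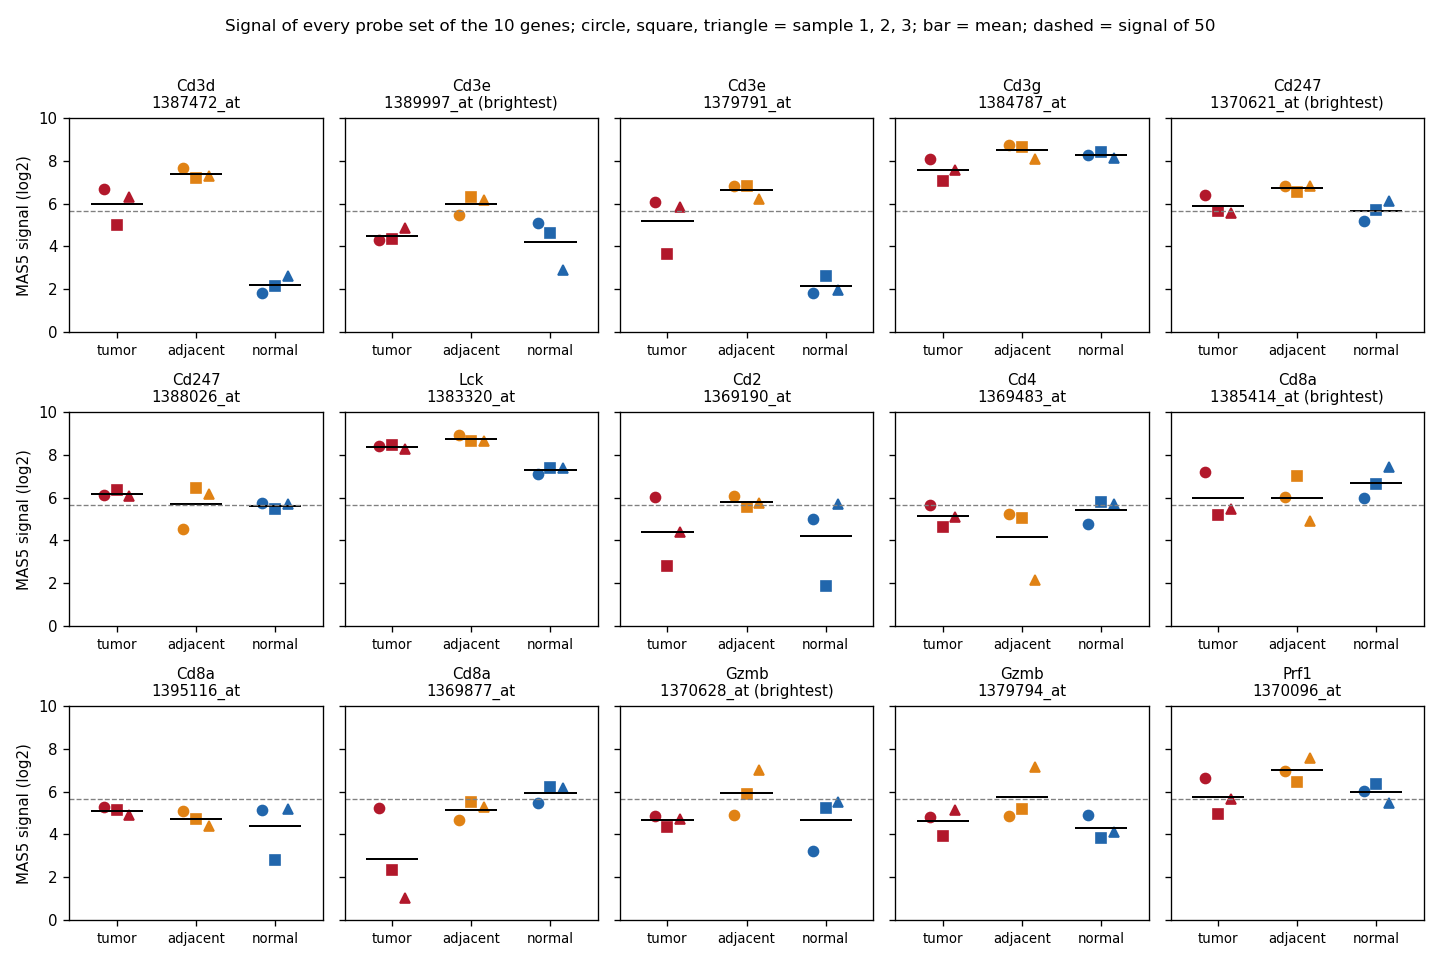
MAS5 signal (log2, vertical axis) of the 15 probe sets of the 10 genes in tumors, adjacent tissue and normal bladder; each point is 1 array, the bar is the group mean and the dashed line is a signal of 50. On Cd3d and on Cd3e probe set 1379791_at the 3 normal bladders lie at 2.64 or below and the adjacent samples at 6.23 or above, and on Lck the normal bladders lie below all other samples.

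Lck, the kinase that phosphorylates the CD3 and zeta chains, was bright everywhere and varied little within groups. Its log2 signals were 8.42, 8.44 and 8.27 in tumors, 8.94, 8.66 and 8.63 in adjacent tissue and 7.12, 7.40 and 7.37 in normal bladder. Tumors and adjacent samples all lay above the normal bladders. Lck was 2.73-fold higher in adjacent tissue than in normal bladder (log2 signal 8.74 ± 0.17 against 7.30 ± 0.15, SD, n = 3 each, limma adjusted p = 0.0028) and 2.12-fold higher in tumors (8.38 ± 0.09 against 7.30 ± 0.15, limma adjusted p = 0.0096). Its call in adjacent tissue held without each array in turn, and the one in tumors was lost without normal sample 1 (limma adjusted p = 0.051).

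Cd2, an adhesion receptor of T and NK cells, scattered too widely within groups for a comparison to pass. Its log2 signals were 6.01, 2.82 and 4.39 in tumors, 6.09, 5.56 and 5.74 in adjacent tissue and 5.0, 1.89 and 5.69 in normal bladder. All groups overlapped, and the log2 difference from normal bladder was 1.60 in adjacent tissue (95% confidence interval -0.56 to 3.76) and 0.21 in tumors (-2.59 to 3.02).

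The coreceptor genes did not follow the CD3 delta chain. Cd4 had log2 signals of 5.66, 4.65 and 5.10 in tumors, 5.25, 5.07 and 2.16 in adjacent tissue and 4.77, 5.80 and 5.71 in normal bladder. These were close to or under the dim limit on every array. Its log2 difference from normal bladder was -1.27 in adjacent tissue (95% confidence interval -3.27 to 0.73) and -0.29 in tumors (-1.41 to 0.82), with limma adjusted p = 0.37 and 0.72.

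Cd8a had log2 signals of 7.21, 5.19 and 5.49 in tumors, 6.03, 7.0 and 4.92 in adjacent tissue and 6.0, 6.63 and 7.42 in normal bladder on its brightest probe set, 1385414_at. The groups overlapped, with a log2 difference from normal bladder of -0.70 in adjacent tissue and -0.72 in tumors (limma adjusted p = 0.47 for both). Probe set 1395116_at was dim on all 9 arrays. On 1369877_at the log2 signal was 5.22, 2.32 and 1.05 in tumors, 4.67, 5.50 and 5.29 in adjacent tissue and 5.48, 6.24 and 6.16 in normal bladder, so that tumors lay below normal bladders (limma adjusted p = 0.081). This difference passed without tumor 1 (limma adjusted p = 0.0027), in a fit of all 9 arrays (limma adjusted p = 0.048) and with 50 added to the signal (limma adjusted p = 0.043), and since all tumors were dim its fold is only at least 1.24.

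Gzmb, the protease of cytotoxic granules that cleaves caspases, had log2 signals of 4.87, 4.37 and 4.73 in tumors, 4.91, 5.87 and 7.02 in adjacent tissue and 3.23, 5.24 and 5.51 in normal bladder on 1370628_at. All tumors and all normal bladders were dim. Adjacent sample 3 was the highest on this probe set and on 1379794_at, where it reached 7.17 while the other 8 arrays lay between 3.84 and 5.21. The log2 difference between adjacent tissue and normal bladder was 1.27 (95% confidence interval -0.51 to 3.05) and 1.47 (-0.12 to 3.06) on these probe sets (limma adjusted p = 0.31 and 0.19).

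Prf1, the pore-forming protein of the same granules, had log2 signals of 6.66, 4.97 and 5.65 in tumors, 6.96, 6.43 and 7.58 in adjacent tissue and 6.05, 6.38 and 5.48 in normal bladder. Adjacent samples all lay above the normal bladders, and tumors spread across both. The difference between adjacent tissue and normal bladder was 1.02 (95% confidence interval 0.09 to 1.95, limma adjusted p = 0.12), and that between tumors and normal bladder was -0.21 (-1.40 to 0.97, limma adjusted p = 0.81).

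Against normal bladder, 2 of the 10 genes, Cd3d and Lck, rose in tumors and 0 fell, beside 13.6% of all genes that rose and 9.95% that fell. The same pair rose in adjacent tissue and 0 fell, beside 13.3% and 11.5% of all genes. A share of 2 in 10 is not far from these backgrounds, so the count says little about the list as a whole. By probe set, 3 of 15 passed in each comparison, where 18.0% of all probe sets passed in tumors and 18.9% in adjacent tissue. The median log2 difference over the 10 genes was 0.10 in tumors and 1.16 in adjacent tissue, beside 0.05 and 0.01 over all genes. Both comparisons share the normal samples. Low signal limits what the list can show: 4 of the 10 genes lay at or above the 40th percentile of mean signal, and 2 of the 15 probe sets, those of Cd3g and Lck, were above the dim limit on all 9 arrays.

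**Figure D2:**
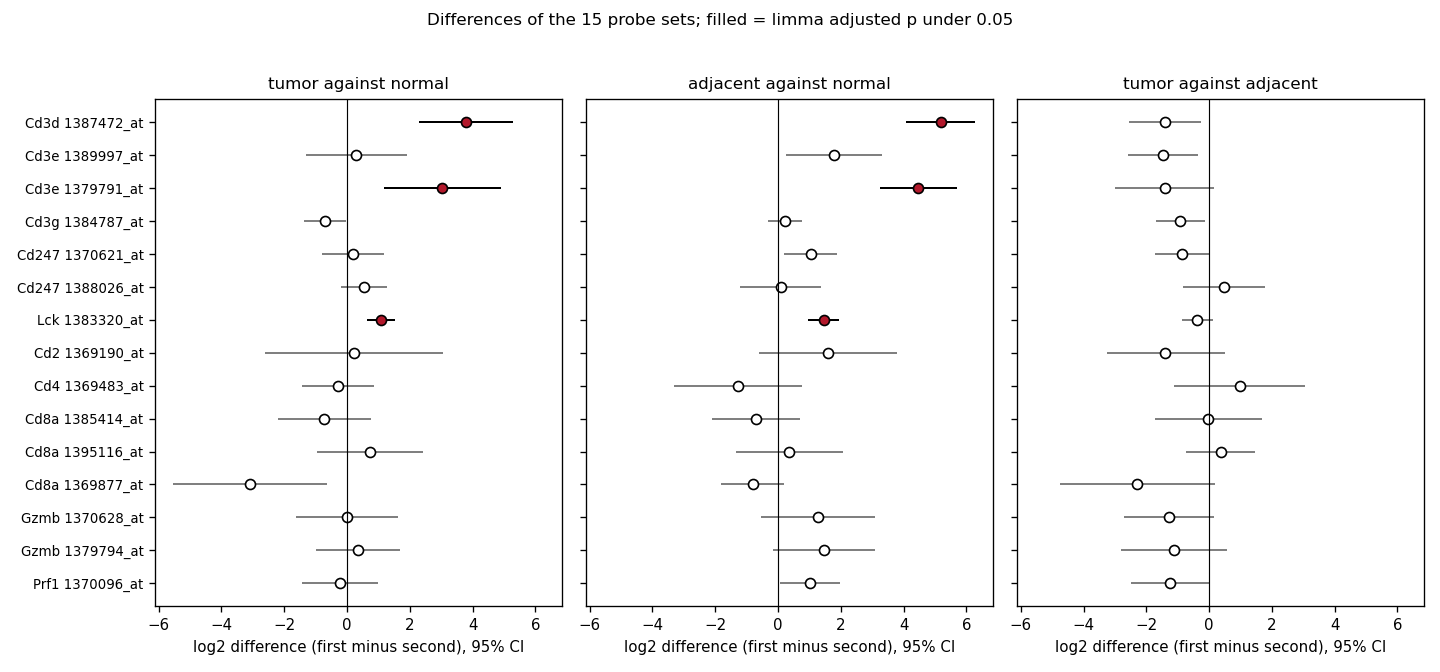
Log2 difference (horizontal axis, first group minus second, with its 95% confidence interval) of the 15 probe sets in the 3 comparisons; filled points have a limma adjusted p under 0.05. Cd3d, Lck and Cd3e probe set 1379791_at pass in both comparisons with normal bladder, and no probe set passes between tumors and adjacent tissue.

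Most of the genes were lower in tumors than in the adjacent tissue of the same rats, but no single difference passed the test. For Cd3d, the tumor minus the adjacent sample of the same number was -0.97, -2.23 and -0.99 on the log2 scale, which leaves a mean of -1.40. Its SE was 0.48 in the fit that ignores the pairs (limma adjusted p = 1.0). With the replicate number as a block the SE was 0.38 (limma adjusted p = 0.92). For Cd3g these differences were -0.65, -1.58 and -0.54, and for Cd3e on its brighter probe set -1.17, -1.96 and -1.29. Cd247 followed with -0.43, -0.87 and -1.24 on its brighter probe set, but had 1.57, -0.10 and -0.08 on the other, 1388026_at. Lck had the small differences of -0.52, -0.22 and -0.36. Prf1 differed by -0.30, -1.47 and -1.94 and Gzmb by -0.04, -1.50 and -2.28, where both Gzmb values of rat 1 were dim. Cd2 differed by -0.08, -2.73 and -1.35. Cd4 and Cd8a did not keep a direction, at 0.42, -0.43 and 2.94 and at 1.18, -1.81 and 0.57. In all, 8 of the 10 genes, each on its brightest probe set, were lower in the tumor in all 3 pairs, against 11.5% of all genes. That count includes differences between dim values, whose order carries no measurement: Gzmb and Cd3e in rat 1 and Cd2 in rat 2. Cd3e and Gzmb were dim in all 3 tumors.

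No gene of the array passed between tumors and adjacent tissue by limma (0% higher, 0% lower and 0% of probe sets), so the adjusted test could not separate these genes from the rest. At an unadjusted p under 0.05, 4 of the 10 were lower in tumors (Cd3d, Cd3e, Cd3g and Prf1) and 0 higher, where 1.06% of all genes were lower. In either direction, 2.64% of all genes had such a p. Cd3e was dim in every tumor. The 10 genes were chosen with earlier results of these data known, so their count is a description and no test of the list. The methods' test of means with equal variances gave 0 probe sets after adjustment as well, and with the replicate number as a block the limma adjusted p was 0.92 for each of Cd3d, Cd3e, Cd3g and Prf1. The median log2 difference over the 10 genes was -1.08, beside 0.02 over all genes.

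The T cell receptor chains were set beside genes of leukocytes in general. The mean log2 signal of Cd3d, Cd3e, Cd3g and Cd247 was 6.36, 5.52 and 6.08 in the tumors, 7.16, 7.18 and 7.09 in the adjacent tissue and 5.10, 5.22 and 4.95 in normal bladder. For 17 measured genes that most leukocytes express, among them Ptprc (CD45), the mean was 9.03, 8.54 and 8.29 in tumors, 8.88, 8.90 and 9.30 in adjacent tissue and 8.07, 8.20 and 7.90 in normal bladder. The chains were highest in adjacent tissue. The leukocyte genes of tumor 1 reached the adjacent range only with dim values taken as they stand. The lower chain level of normal bladder against tumors rests on dim values of Cd3d and Cd3e. With signals under 50 set to 50, a choice made after seeing the data, the chains averaged 6.33 ± 0.35 in tumors, 7.16 ± 0.06 in adjacent tissue and 6.35 ± 0.05 in normal bladder (SD, n = 3 each), so that only adjacent tissue stood above normal bladder. The leukocyte genes then averaged 8.84 ± 0.19 in tumors, 9.28 ± 0.23 in adjacent tissue and 8.25 ± 0.03 in normal bladder. Tumor 1 then had 9.04 for these genes, below the adjacent samples at 9.22, 9.08 and 9.53. The leukocyte genes were thus also highest in adjacent tissue. The chains minus the leukocyte genes averaged -2.64 in tumors, -1.88 in adjacent tissue and -2.97 in normal bladder with values as they stand. With that limit they averaged -2.51 ± 0.16, -2.12 ± 0.28 and -1.90 ± 0.08 (SD), so the order of the groups depends on dim values. Of the 17 leukocyte genes, 4 rose and 1 fell in tumors against normal bladder, and 11 rose and 1 fell in adjacent tissue, beside the 13.6% and 9.95% of all genes in tumors and the 13.3% and 11.5% in adjacent tissue. Ptprc was 3.30-fold higher in adjacent tissue than in normal bladder (limma adjusted p = 0.0027). Against adjacent tissue, 9 of the 17 were lower in the tumor in all 3 pairs, with a median log2 difference of -0.63.

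**Figure D3:**
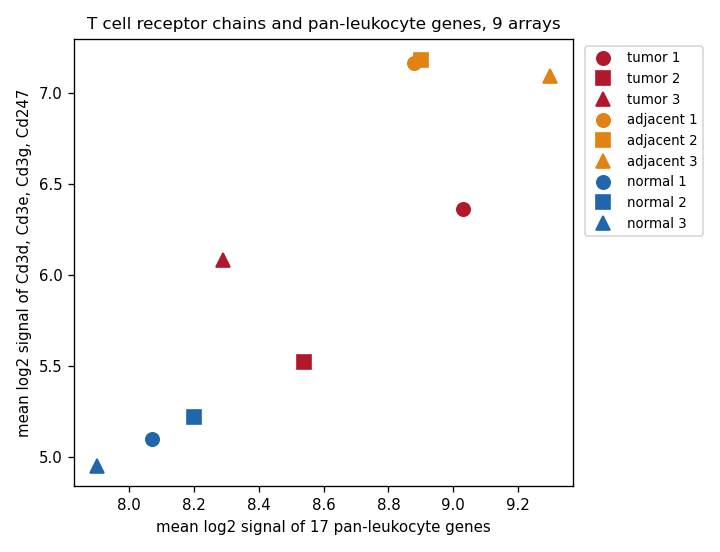
Mean log2 signal of Cd3d, Cd3e, Cd3g and Cd247 (vertical axis) against the mean log2 signal of 17 pan-leukocyte genes (horizontal axis), 1 point for each of the 9 arrays. The adjacent samples lie at 7.09 to 7.18 on the vertical axis, the tumors at 5.52 to 6.36 and the normal bladders at 4.95 to 5.22, where Cd3d and Cd3e are dim on every array and the exact level is not measured.

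Markers of other leukocytes also differed between the groups, and their part in the values above was not tested. Summed linear signals of 8 neutrophil genes were 4729 to 21543 in tumors and 6750 to 52352 in adjacent tissue, against 214 to 291 in normal bladder. In tumors and adjacent tissue these sums follow mainly S100a8 and S100a9. The median log2 difference of the 8 was 3.36 in tumors and 3.89 in adjacent tissue. In each comparison with normal bladder, 5 of the 8 genes were higher and 0 lower, and Cxcr2, Mmp8 and Camp did not pass. Of all genes, 13.6% rose and 9.95% fell in tumors, and 13.3% rose and 11.5% fell in adjacent tissue. Adjacent sample 3, which had the highest Gzmb and Prf1, also had the highest neutrophil sum. For 13 macrophage genes the sums were 18842 to 25507 in tumors, 22984 to 34409 in adjacent tissue and 14323 to 16823 in normal bladder. In each comparison 4 were higher and 0 lower. Linear sums follow the brightest genes, such as Lyz2. The median log2 difference of the 13 was 0.15 in tumors and 0.24 in adjacent tissue, beside 0.05 and 0.01 over all genes. Passing or not, 8 of the 13 lay higher in tumors and 9 in adjacent tissue, and Csf1r, Mrc1 and Cd163 lay lower in both. Of 8 B cell and plasma cell genes, 0 rose and 1 fell in tumors, and 2 rose and 1 fell in adjacent tissue. These counts are not far from the shares of all genes, so they say little about the list. Jchain, the joining chain of polymeric antibodies, was at least 16.2-fold higher in adjacent tissue (limma adjusted p = 0.022). Mzb1, a chaperone of plasma cells, was at least 4.13-fold higher (limma adjusted p = 0.030). Both were highest in adjacent sample 1, with log2 signals of 12.31, 8.81 and 7.86 for Jchain and 9.33, 7.51 and 6.23 for Mzb1. Fits without single arrays are not given for them. Passing or not, 5 of the 8 lay higher in adjacent tissue, and Cd79b, Cd22 and Fcrla lay lower. Fcrla, an Fc receptor-like gene of B cells, fell 9.11-fold in tumors and 12.5-fold in adjacent tissue (limma adjusted p = 0.0031 and 0.0016). The sum over these genes was 310 to 684 in tumors, 584 to 6104 in adjacent tissue and 935 to 1619 in normal bladder. Mast cell sums were 663 to 2611 in tumors, 934 to 5035 in adjacent tissue and 982 to 1049 in normal bladder.

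Of 33 measured T cell signalling and surface genes (of 45 listed), 10 rose and 1 fell in adjacent tissue against normal bladder, beside 13.3% and 11.5% of all genes. Without any 1 of the normal samples, 5 passed in all, both directions together. The share of all genes that passes in those smaller fits was not computed, so this count has no background beside it. The median log2 difference was 1.11 beside 0.01 over all genes. Icos, a costimulatory receptor of activated T cells, had log2 signals of 8.75, 7.81 and 9.05 in adjacent tissue against 6.70, 6.41 and 6.02 in normal bladder, and was 4.47-fold higher (limma adjusted p = 0.0062). Fyb1, an adaptor that links the T cell receptor to integrins, was 3.44-fold higher (8.85 ± 0.23 against 7.07 ± 0.16, limma adjusted p = 0.0018). Both calls held without each array in turn. Trat1, which stabilizes receptor complexes at the surface, passed (limma adjusted p = 0.025) but was dim in all adjacent and normal samples, and it lost its call without adjacent sample 1 or 3 or any normal sample.

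Il7r, the interleukin-7 receptor (2.93-fold, limma adjusted p = 0.0064), and Il2rg, the common gamma chain of interleukin receptors (2.50-fold, limma adjusted p = 0.010), rose in adjacent tissue and held without each array in turn. Lat, Vav1, Il2rb and Cd5 passed as well (limma adjusted p = 0.018 to 0.048), but each lost its call without adjacent sample 2 and without any 1 of the normal samples, and Vav1 and Il2rb also without adjacent sample 3. Bcl11b, a transcription factor of T cells that epithelial cells of skin express as well, had log2 signals of 8.48, 9.71 and 10.59 in tumors, 9.50, 9.27 and 11.07 in adjacent tissue and 6.47, 6.90 and 6.74 in normal bladder. It rose 7.43-fold in tumors (limma adjusted p = 0.011, lost without normal sample 1 or 3, up to 0.054) and 9.47-fold in adjacent tissue (limma adjusted p = 0.0030, held without each array). Prkcq, a protein kinase C of T cells that skeletal muscle expresses as well, went the other way, with log2 signals of 6.59, 5.70 and 5.15 in tumors, 6.60, 6.24 and 3.49 in adjacent tissue and 8.82, 8.62 and 8.66 in normal bladder. It fell 7.40-fold in tumors (limma adjusted p = 0.0051) and 9.58-fold in adjacent tissue (limma adjusted p = 0.020), and its call in adjacent tissue was lost without any 1 of the normal samples.

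In tumors against normal bladder, 2 of the 33 genes rose (Bcl11b and Il2rg) and 2 fell (Prkcq and Grap2), smaller shares than the 13.6% and 9.95% of all genes. The median log2 difference was 0.27 beside 0.05 over all genes. Il2rg was 1.87-fold higher (limma adjusted p = 0.038) and kept its call only without tumor 1. Grap2, an adaptor of Lat signalling, was at least 1.43-fold lower (limma adjusted p = 0.021) and lost its call without any 1 of the normal samples. Between tumors and adjacent tissue, 0 of the 33 passed by limma. An unadjusted p under 0.05 was reached by 6 of them, beside 2.64% of all genes. Among the 33, the smallest p were those of Fyb1 (log2 difference -1.02, SE 0.26) and Rasgrp1, an exchange factor that activates Ras after receptor signals (-3.08, SE 0.83), which was dim in all tumors.

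Of 29 measured cytotoxic and NK genes (of 35 listed), 5 rose and 1 fell in tumors and 6 rose and 1 fell in adjacent tissue, both against normal bladder. These shares lie near the 13.6% and 13.3% of all genes that rose, so the counts say little about the list. In tumors the count past the threshold was 2 without normal sample 1 or 2 and 3 without normal sample 3, and in adjacent tissue it was 4 without normal sample 1 or 2. The median log2 difference was 0.53 in tumors and 0.59 in adjacent tissue, beside 0.05 and 0.01 over all genes. Klrk1, the activating receptor NKG2D, had log2 signals of 6.45, 7.17 and 7.05 in adjacent tissue against 3.99, 3.61 and 5.61 in normal bladder, and was at least 2.37-fold higher (limma adjusted p = 0.022, lost without adjacent sample 2 or normal sample 1 or 2). Cst7, an inhibitor of granule proteases that myeloid cells also express, rose 4.87-fold in adjacent tissue (limma adjusted p = 0.0015) and 2.61-fold in tumors (limma adjusted p = 0.010, lost without normal sample 1 or 2). Srgn, the proteoglycan of granules in many leukocytes, rose 2.90-fold in adjacent tissue and 2.17-fold in tumors (limma adjusted p = 0.0052 and 0.0064). Fcgr3a, an Fc receptor of NK cells and macrophages, was 3.08-fold higher in adjacent tissue (limma adjusted p = 0.0065).

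Changes in the opposite direction were few among the cytotoxic genes. Serpinb9, an inhibitor of granzyme B, fell 1.74-fold in adjacent tissue (10.60 ± 0.07 against 11.41 ± 0.20, limma adjusted p = 0.0071). Tnfsf10, the death ligand TRAIL, fell 6.86-fold in tumors (5.92 ± 0.94 against 8.69 ± 0.24, limma adjusted p = 0.0099, lost without normal sample 3). Ctsc, the protease that activates granzymes and is found in many myeloid cells, was 1.61-fold higher in tumors (limma adjusted p = 0.015), and Stxbp2, which serves granule release, was 1.68-fold higher (limma adjusted p = 0.046). Ctsc lost its call without any 1 of the normal samples, and Stxbp2 kept its own only without tumor 1. Other granzymes measured (Gzma, Gzmf, Gzmk and Gzmm) did not pass in any comparison. Between tumors and adjacent tissue, 0 of the 29 passed by limma. An unadjusted p under 0.05 was reached by 1, Cst7 (log2 difference -0.90, SE 0.29), beside 2.64% of all genes. Stxbp2 followed among the 29 (0.52, SE 0.24).

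**Figure D4:**
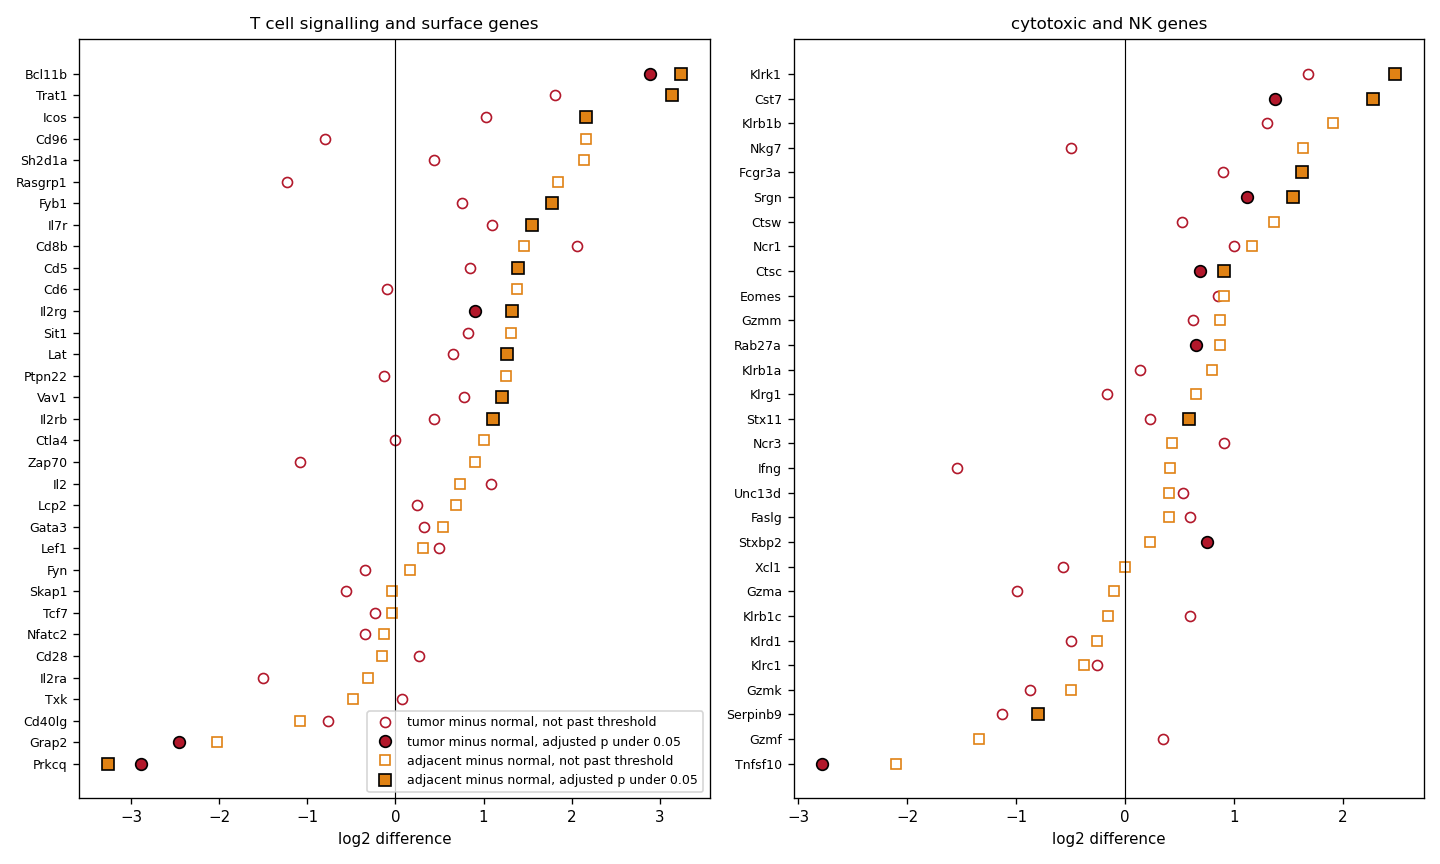
Log2 difference from normal bladder (horizontal axis) of 33 T cell signalling and surface genes (left) and 29 cytotoxic and NK genes (right), in tumors (circles) and adjacent tissue (squares); filled symbols have a limma adjusted p under 0.05. In adjacent tissue 10 genes on the left and 6 on the right are filled to the right of 0, against 2 and 5 in tumors.

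Over the 9 arrays, the 10 genes did not all vary together. Cd3d and Lck were the closest pair (Pearson's r = 0.967 over 9 arrays, and 0.829 with signals under 50 set to 50). Cd3d with Cd247 had an r of 0.742, and 0.891 with that limit. Outside the list, the genes whose values were most like the mean of the 4 chains were Dapp1, an adaptor of lymphocyte signalling (r = 0.979), Fyb1 (r = 0.971), Ppa1 (r = 0.971), Cep152 (r = 0.969) and RT1-Da, an MHC class II chain (r = 0.967). Kmo, Ms4a6a, Acsl5, Hcst and Spef1 followed (r = 0.956 to 0.965), among 11071 genes with a mean signal of at least 50. Hcst encodes DAP10, the signalling partner of NKG2D. With signals under 50 set to 50 in the chains, r for these 10 genes was 0.779 to 0.910. These r values describe 9 arrays in 3 groups, and share the differences between those groups.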

How the data were processed

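RNA of 9 bladder samples was hybridised to Affymetrix 3' expression arrays. The deposited values are log2 signals, which the authors made with the MAS5 algorithm in Gene Spring Software. Their linear 2% trimmed mean was 498 or 499 on every array. The 57 array controls were left out, leaving 31042 probe sets, of which 20826 have 1 gene, 436 several and 9780 none. Probe set 1371126_x_at, which names Gzmb and another gene, was not used. Differences were fitted for 1 pair of groups at a time with limma 3.58.1 in R 4.3.3 (lmFit, then eBayes with a trend), across all probe sets. The adjusted p is Benjamini and Hochberg's over these probe sets (threshold 0.05). Nothing says whether RNA was extracted more than once, so p-values measure the spread between these samples. The number of arrays limits the precision. Tumors and adjacent samples of the same number deviated together (correlation of deviations from group means 0.52, 0.13 and 0.38 for numbers 1, 2 and 3, against -0.46 to 0.27 for different numbers, the highest being tumor 2 with adjacent sample 3), so the numbers were taken to pair them, as the design states that these tissues are paired. The members and lists were chosen with earlier results of these data known. Named list genes are the 4 largest rises and falls past the threshold, or the 2 smallest p where none passed. Lat, Vav1, Il7r, Il2rb, Cd5, Ptprc, Jchain, Mzb1 and Fcrla were added after their values were seen. The code was tested on simulated data. Probe-level files were not used here. Promoters are RefSeq's (GRCr8).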

Additional observations from a re-analysis of the deposited data

How the results depend on the processing

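Without each array in turn, the number of the 10 genes past the threshold was 1 to 3 in tumors against normal bladder and 2 to 2 in adjacent tissue (1 without normal sample 1 in the first), and for the 15 probe sets 1 to 4 and 3 to 3. For T cell signalling and surface genes it was 1 to 7 in tumors and 5 to 11 in adjacent tissue, and for cytotoxic and NK genes 2 to 8 and 4 to 8. Without normal samples 1, 2 and 3 in turn, 1, 2 and 1 signalling genes and 2, 2 and 3 cytotoxic genes passed in tumors, and 5 signalling genes each time in adjacent tissue. Without tumor 2, 7 signalling genes passed in tumors. A fit restricted to probe sets above the 40th percentile of mean signal tested 4 of the 10 genes, and 1 passed in each comparison with normal bladder (1 probe set as well), because Cd3d fell outside it. In tumors, 7 signalling genes passed after quantile normalization and 7 with arrays centred on their medians. These scalings moved the median log2 difference of all genes to 0.13 and 0.25 in tumors and to 0.08 and 0.21 in adjacent tissue. The share of all genes that passes under each alternative is not given, so the counts in this paragraph have no gene background beside them. Without a variance trend, 3 cytotoxic genes passed in tumors. By the t-test with equal variances after adjustment, 2 signalling and 2 cytotoxic genes passed in tumors and 6 and 3 in adjacent tissue. Of all 31042 probe sets, 1764 passed that test in tumors and 2394 in adjacent tissue. With the replicate number as a block, 7 signalling genes passed in adjacent tissue; numbers of normal rats pair with no other sample. The block changed no call between tumors and adjacent tissue, where 0 passed under every alternative. With the mean of each gene's probe sets, the chain level was 4.76 and 4.94 in normal samples 1 and 2. For single probe sets, 609 values under an alternative kept their side of the threshold, 10 lost it, 8 gained it and 0 of the called values changed sign. For Cd3e (1379791_at) in tumors the call was also lost with 50 added (adjusted p = 0.061), without a trend (0.059), with the replicate block (0.082) and by the t-test with equal variances (0.11). The cause of these shifts was not tested beyond the fewer arrays or probe sets named. With signals under 50 set to 50, an alternative added after seeing the data, the chain level was 6.70 and 6.01 in tumors 1 and 2 and 6.30, 6.35 and 6.39 in the normal bladders. Dim signals limit most of the 15 probe sets, since only those of Cd3g and Lck exceeded 50 on all 9 arrays.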
